A study of Homo sapiens with 14 samples.

Results

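Ascorbate was added to cells that were also treated with TETi76, and the messenger RNA of those cells was compared with that of cells given TETi76 alone. The comparison rests on 4 of the 14 libraries in the series, chosen by their labels: 2 libraries of K01 cells with TETi76 and ascorbate and 2 of K01 cells with TETi76. K01 is a clone of K562, a human erythroleukaemia line, and its genotype in the series text is TET2+/+. TETi76, which the study uses to inhibit TET dioxygenases, was given at 12.5 µM and ascorbate at 100 µM, and cells were collected after 24 h. K01 cells with DMSO and K01 cells with 100 µM ascorbate alone, 2 libraries each, give the same addition of ascorbate without TETi76. The second K562 clone, K18, is TET2-/- and had 2 DMSO libraries, which entered the model only through the shared estimate of the spread. The remaining libraries came from the leukaemia line SIGM5 and are not analysed here. K01 is 1 clone, so what holds for it was not tested in another TET2+/+ clone. The labels number the replicates without saying whether they were separate cultures, so p-values measure the spread between libraries, which may be technical.

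TET enzymes oxidise 5-methylcytosine in DNA with iron(II), oxygen and 2-oxoglutarate as cofactors. Ascorbate keeps the iron of this enzyme family reduced and is widely used to raise TET activity in cultured cells, many of which are grown with little of it. The same chemistry is shared by histone demethylases and by prolyl hydroxylases, and ascorbate in culture medium is also a redox-active compound that can give rise to peroxide.

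Values are FPKM, read counts scaled by gene length and library size. Depth, estimated from the value of a single read in low genes, was 6.84 and 7.24 M reads (M, mega) for TETi76 and 4.62 and 6.76 M for TETi76 with ascorbate, against 4.62 to 8.81 M over the 10 K562 libraries. The Pearson correlation between replicates across genes on the log2 scale was 0.982 for TETi76 and 0.976 for TETi76 with ascorbate, which was the lowest of the 5 groups. On the first principal component, 40.7% of the variance, TETi76 lay at 25.8 and 26.1 and TETi76 with ascorbate at 36.3 and 37.2, while DMSO lay at -17.5 and -16.7 and ascorbate alone at -15.0 and -15.1. On the third component, 6.70% of the variance, the shallowest library, TETi76 with ascorbate replicate 1, stood at -23.4 and its replicate 2 at -2.37, so results are also given without each of them. All 10 marker genes of K562 were present, among them the embryonic globin HBE1 at 1233 to 5275 FPKM and the erythroid factor GATA1 at 117 to 196 FPKM. Of 16 markers of other cells, the B cell gene MS4A1 and the endothelial gene CDH5 were listed at 0 in the 4 libraries, while the epithelial genes KRT19 and EPCAM and the myeloid gene LYZ were present, with means of 172, 39.7 and 32.8 FPKM with TETi76 and 185, 38.1 and 29.2 with TETi76 and ascorbate. The summed level of all 16 was 248 and 250 FPKM with TETi76 and 266 and 249 FPKM with TETi76 and ascorbate.

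With TETi76 present, the genes that rose on adding ascorbate included the cell-cycle inhibitor CDKN1A, the heat-shock genes HSPA1A, HSPA1B and DNAJB1 and the autophagy receptor SQSTM1. Those that fell included the globin genes HBQ1 and HBE1, the erythroid factor KLF1, the transferrin receptor TFRC and the cyclins CCNB1 and CCNA2. The test was limma with Benjamini-Hochberg adjustment over 12535 genes, on log2(FPKM + 1), a scale that understates the change of genes near 1 FPKM. It called 92 genes at an adjusted p under 0.05, which is 0.734% of those tested. Of these, 31 rose (0.247% of genes tested) and 61 fell (0.487%). The median log2 change was 0.68 among those that rose and -0.59 among those that fell, beside -0.0025 over all genes tested. A change of at least 1.5-fold on this scale was reached by 49 of the called genes and one of at least 2-fold by 14, 6 of them higher and 8 lower. Of those 6, LIM2, SPANXC and LINC01564 were listed at 0 in both TETi76 libraries, so their fitted values depend on the pseudocount. In all 92 the 2 libraries of one group lay outside the range of the other, as they did in 5261 of the 12535 genes tested (42.0%). Abundant genes made up most of the calls, with 59 of the 92 in the top 25% of genes by expression and 6 in the lowest 25%. The count of calls depends on single libraries. It was 2 without TETi76 replicate 1, both among the 92, and 2 without TETi76 replicate 2, 0 of them among the 92. It was 3 without TETi76 with ascorbate replicate 2, 2 of them among the 92, and 72 without TETi76 with ascorbate replicate 1, 32 of them among the 92. It was 28 to 52 without 1 of the DMSO or ascorbate libraries.

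**Figure D1:**
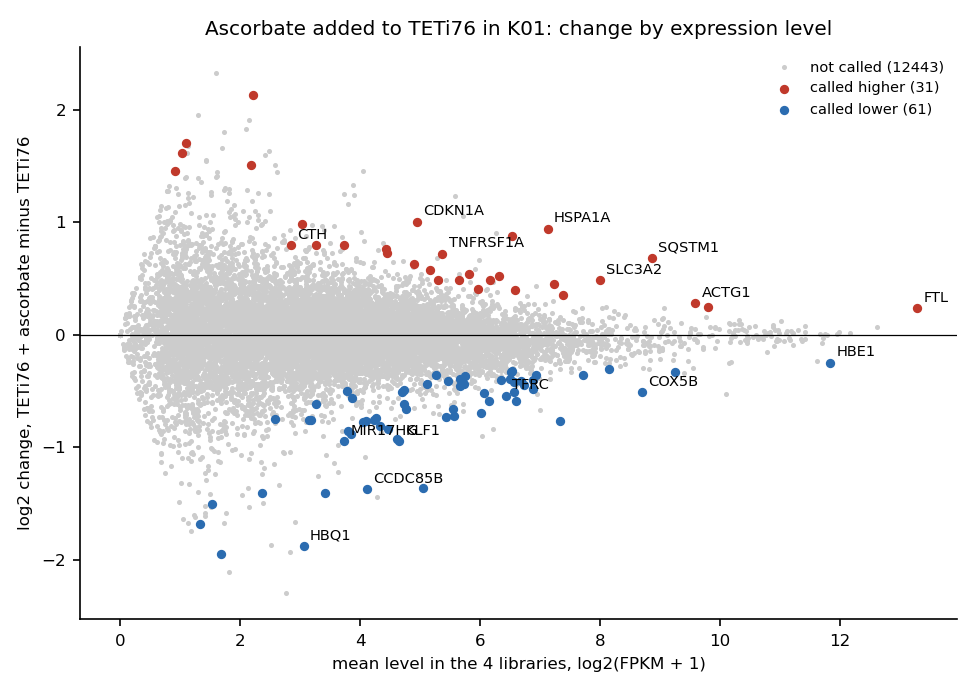
Log2 change on adding ascorbate to TETi76 in K01 (vertical axis) against the mean level in the 4 libraries, log2(FPKM + 1) (horizontal axis), for 12535 genes. Each point is a gene: 31 called higher are red, 61 called lower are blue and the others grey. Called genes with small changes, such as FTL at 0.23 and HBE1 at -0.25, lie at high levels.

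CDKN1A, the cyclin-dependent kinase inhibitor p21, was at 19.5 and 19.4 FPKM with TETi76 and at 39.2 and 41.2 FPKM with TETi76 and ascorbate. The groups were far apart, and the level in DMSO was 5.08 and 5.88 FPKM. The log2 change on adding ascorbate was 1.01 (SE 0.11, limma adjusted p = 0.0107). CDKN1A is a target of p53, and of the 21 p53 targets tested it was the one that passed the test. The median of that list was 0.15, and 18 of the 21 had a log2 value above 0, beside 6178 of all 12535 genes tested.

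Heat-shock chaperones, which refold damaged proteins, had 3 of 21 members higher and 0 lower. HSPA1A, an inducible HSP70, was at 92.9 and 96.7 FPKM with TETi76 and at 176 and 190 FPKM with ascorbate added (log2 0.94, SE 0.12, adjusted p = 0.0127). Its near-identical copy HSPA1B rose by 0.88 (SE 0.12, adjusted p = 0.0189), and reads of the pair cannot be fully told apart. DNAJB1, the HSP40 partner of HSP70, was at 64.3 in both TETi76 libraries and at 94.7 and 91.0 FPKM with ascorbate (log2 0.52, SE 0.07, adjusted p = 0.0236). No other member of the list was called, though DNAJB4 was at 0.50, BAG3 at 0.45 and HSPH1 at 0.32. The HSP90 genes HSP90AA1 and HSP90AB1 were at 0.11 and 0.09 and the mitochondrial chaperonin HSPD1 at -0.25. The list median was 0.03, and 8 of the 21 had a log2 value below 0. At an unadjusted limma p under 0.05, 7 members were higher and 2 lower, beside 773 and 1058 of the 12535 genes tested. Endoplasmic reticulum chaperones had 0 of 18 members called by limma and 5 at an unadjusted p under 0.05, as were 14.6% of all genes tested, with a median of 0.06. Proteasome subunits had 0 of 27 called, 4 at an unadjusted p under 0.05 and a median of 0.07.

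Genes of autophagy and the lysosome had 3 of 25 members higher and 0 lower, with a median of 0.12. SQSTM1, the p62 receptor that carries ubiquitinated cargo to autophagosomes, was at 359 and 356 FPKM with TETi76 and at 576 and 572 FPKM with ascorbate added, beside 61.1 and 51.7 FPKM in DMSO. The log2 change was 0.68 (SE 0.07, adjusted p = 0.0107), with a difference between groups many times that between replicates. MAP1LC3B, the LC3 protein of the autophagosome membrane, was at 54.3 and 51.7 FPKM and then at 71.9 and 69.6 FPKM (log2 0.41, adjusted p = 0.049). GLA, the lysosomal alpha-galactosidase, was at 46.3 and 43.6 FPKM and then at 64.9 and 66.9 FPKM (log2 0.54, adjusted p = 0.0462).

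SQSTM1 is also a target of NRF2, the transcription factor of the response to oxidants and electrophiles, and 2 of 24 NRF2 targets rose and 0 fell. The other was FTL, the light chain of the iron store ferritin, at 9313 and 9134 FPKM with TETi76 and 10653 and 11054 FPKM with ascorbate added (log2 0.23, SE 0.04, adjusted p = 0.0314). FTL gave a change of 0 under quantile normalization, which sets the top-ranked gene to the same value in every library. The median of the NRF2 list was 0.14, and 11 of its members were higher and 0 lower at an unadjusted p under 0.05. Of all 12535 genes tested, 773 were higher and 1058 lower at that threshold. Members that did not pass were OSGIN1, an oxidative stress-induced growth inhibitor, at 0.66 (adjusted p = 0.114), the cystine transporter SLC7A11 at 0.69 (adjusted p = 0.0612) and the quinone reductase NQO1 at 0.23. Among 20 genes of peroxide and thiol defence, MSRB1, which reduces oxidised methionine, rose from 41.1 and 40.5 to 56.7 and 58.3 FPKM (log2 0.48, adjusted p = 0.0314), and 0 fell.

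Other genes that rose came from no single family. TNFRSF1A, the TNF receptor that can signal survival or death, was at 31.0 and 29.5 FPKM with TETi76 and 50.9 and 50.2 FPKM with ascorbate added (log2 0.72, SE 0.12, adjusted p = 0.0382). RFFL, a ubiquitin ligase, changed by 0.80, XRCC4, which joins DNA ends with ligase IV, by 0.80, CUEDC2 by 0.76, YPEL5 by 0.73 and the zinc finger gene ZNF280A by 0.57. These 5 had adjusted p values of 0.0236 to 0.0382. The cancer-testis gene PRAME, which is abundant in K562, was at 807 and 818 FPKM and then at 974 and 952 FPKM (log2 0.25, adjusted p = 0.0314). The immediate early genes, which respond within minutes to signals and stress, had the highest list median, 0.30, but limma called 0 of 22, with 5 at an unadjusted p under 0.05. EGR1 was at 67.9 and 64.6 FPKM with TETi76 and at 88.8 and 84.6 FPKM with ascorbate added (log2 0.38, adjusted p = 0.0997), and IER3, which limits cell death, was at 0.90 (adjusted p = 0.0685).

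**Figure D2:**
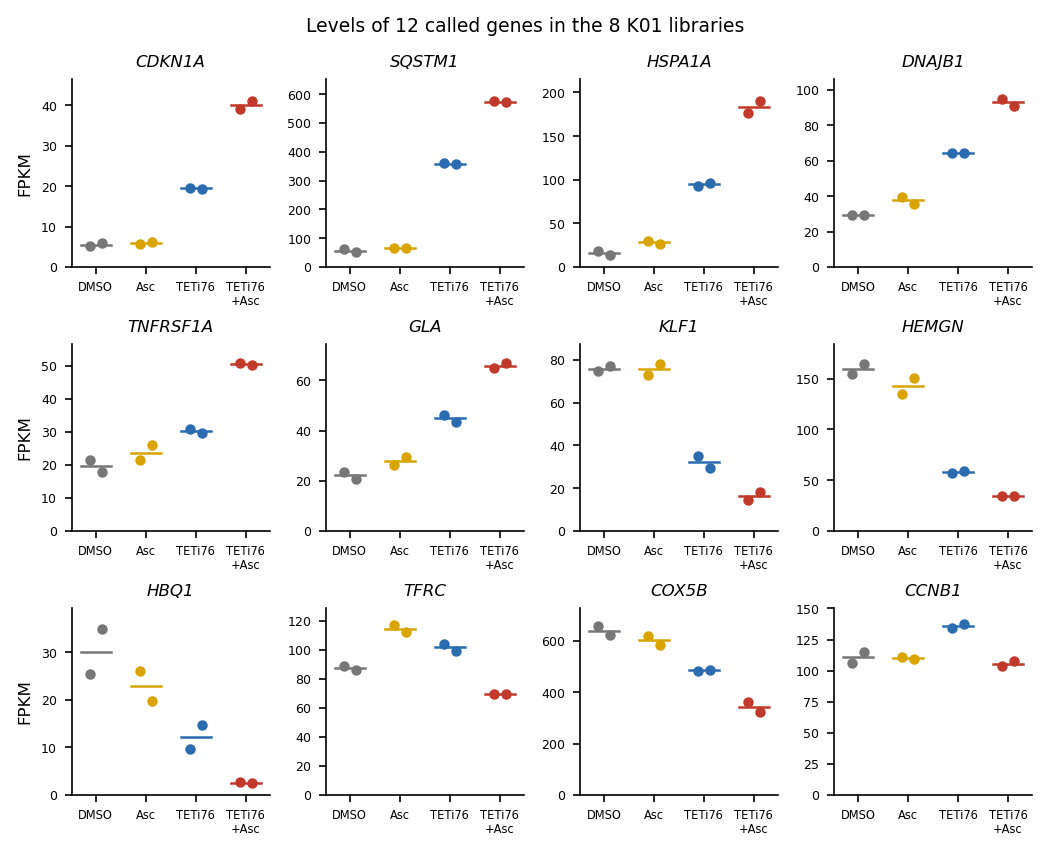
FPKM (vertical axis, from 0) of 12 called genes in the 8 K01 libraries; each point is a library, each line the mean of 2, and Asc is ascorbate. CDKN1A reaches 39.2 and 41.2 FPKM with TETi76 and ascorbate against 19.5 and 19.4 FPKM with TETi76, and KLF1 drops to 14.4 and 18.1 against 34.96 and 29.3 FPKM.

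HBQ1, the theta globin gene, had the largest fall of the genes named here, from 9.66 and 14.7 FPKM with TETi76 to 2.63 and 2.41 FPKM with ascorbate added, beside 25.3 and 34.8 FPKM in DMSO (log2 -1.88, SE 0.21, adjusted p = 0.0107). KLF1, the zinc finger activator of adult globin and red-cell genes, was at 34.96 and 29.3 FPKM with TETi76 and at 14.4 and 18.1 FPKM with both (log2 -0.94, SE 0.12, adjusted p = 0.0127). The groups did not overlap in either gene. With ascorbate alone KLF1 was at 73.0 and 77.9 FPKM, which overlaps the 74.7 and 77.0 FPKM of DMSO. HEMGN, a nuclear protein of erythroid cells, fell from 56.8 and 59.1 to 34.6 and 34.7 FPKM (log2 -0.73, adjusted p = 0.0107). NFE2, a subunit of the factor that drives globin transcription, fell from 95.5 and 88.3 to 73.1 and 65.3 FPKM (log2 -0.40, adjusted p = 0.0425). In these bulk libraries fewer cells of a type and less RNA per cell cannot be told apart.

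Of 25 globin and red-cell membrane genes, 0 rose and 2 fell, among them HBE1. The list median was -0.22 and 20 of the 25 had a log2 value below 0, beside 6331 of all 12535 genes tested. HBE1, the embryonic epsilon globin, was at 3912 and 4063 FPKM with TETi76 and at 3306 and 3413 FPKM with ascorbate added (log2 -0.25, SE 0.04, adjusted p = 0.0375). Of 18 erythroid factors and heme enzymes, 0 rose and 2 fell, KLF1 and NFE2, with a median of -0.17. The factor TAL1 was at -0.29 and GATA1 at -0.13, neither called. AHSP, which stabilises free alpha globin and was near 1 FPKM, was at 1.09 and not called.

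TFRC, the transferrin receptor through which erythroid cells take up iron, was at 104 and 99.3 FPKM with TETi76 and at 69.2 and 69.7 FPKM with ascorbate added. That was below DMSO, at 88.8 and 85.8 FPKM, and below ascorbate alone, at 117 and 112 FPKM, and the 4 groups did not overlap. The log2 change was -0.54 (SE 0.06, adjusted p = 0.0107). Among the 19 iron-handling genes TFRC fell and FTL rose. The others were not called, among them HAMP at 1.45, FBXL5 at 0.69, HFE at 0.40, FTH1 at -0.06, SLC40A1 at -0.33 and SLC11A2 at -0.03. Of the 19, 3 were higher and 1 lower at an unadjusted limma p under 0.05, beside 773 and 1058 of the 12535 genes tested. Of the 19, 7 had a log2 value above 0 and 12 below. The list median was -0.06.

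Of 27 genes of mitosis and G2/M, 0 rose and 2 fell, and the median was -0.22. A log2 value below 0 was found in 26 of them, beside 6331 of all 12535 genes tested. The groups did not overlap in 21 of the 27, all lower, beside 21.5% of all genes tested that were lower without overlap. CCNB1, the mitotic cyclin B1, was at 134 and 138 FPKM with TETi76 and at 103 and 108 FPKM with ascorbate added (log2 -0.36, SE 0.06, adjusted p = 0.0382). CCNA2, cyclin A2, was at 54.6 and 61.7 FPKM and then at 42.7 and 41.3 FPKM (log2 -0.46, adjusted p = 0.0474). PLK1, a kinase of mitotic entry, was at -0.35 and the proliferation antigen MKI67 at -0.23, neither called. Of 32 genes of DNA replication and S phase 0 rose and 1 fell, MCM2, a subunit of the replicative helicase, from 42.8 and 41.9 to 32.7 and 33.1 FPKM (log2 -0.35, adjusted p = 0.0492), and the list median was -0.09.

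MYC, the growth-promoting transcription factor, was at 113 and 116 FPKM with TETi76 and at 74.4 and 78.0 FPKM with ascorbate added (log2 -0.59, SE 0.06, adjusted p = 0.0107). The host transcript of the miR-17-92 cluster, MIR17HG, fell from 15.8 and 17.2 to 8.98 and 7.28 FPKM (log2 -0.95, SE 0.12, adjusted p = 0.0127). NOP16, a factor of the large ribosomal subunit, fell from 79.7 and 77.9 to 48.7 and 47.7 FPKM (log2 -0.70, adjusted p = 0.0376). It was the 1 called gene of 22 in ribosome biogenesis, where the median was -0.20. In that list 19 members had a log2 value below 0, beside 6331 of all 12535 genes tested. Among 14 PIM kinases and STAT5 targets 0 rose and 2 fell, and 13 had a log2 value below 0, with a median of -0.22. These 2 were the survival kinases PIM2, from 75.3 and 79.998 to 56.3 and 51.3 FPKM (log2 -0.52, adjusted p = 0.0242), and PIM1, from 104 and 100.4 to 82.9 and 80.3 FPKM (log2 -0.32, adjusted p = 0.0314).

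SLC19A1, the reduced folate carrier, was at 20.3 and 19.3 FPKM with TETi76 and at 11.7 and 10.6 FPKM with ascorbate added (log2 -0.78, SE 0.09, adjusted p = 0.0127). COX5B, a nuclear-encoded subunit of cytochrome c oxidase, was at 484 and 487 FPKM and then at 361 and 322 FPKM (log2 -0.51, SE 0.06, adjusted p = 0.0127). It was the 1 called gene of 27 for oxidative phosphorylation, and that list had a median of -0.07. LDHA, lactate dehydrogenase A, fell from 314 and 311 to 257 and 249.995 FPKM (log2 -0.30, adjusted p = 0.0314) and was the 1 called gene of 23 hypoxia targets, with a list median of 0.03. Cholesterol synthesis had 0 of 25 members called by limma and 6 at an unadjusted p under 0.05.

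Of the other large falls, CCDC85B was at 22.4 and 25.4 FPKM and then at 10.6 and 6.98 FPKM (log2 -1.37, adjusted p = 0.0408). HIST2H2BC, a histone family locus, was at 15.6 and 13.4 FPKM and then at 4.69 and 4.999 FPKM (log2 -1.41, adjusted p = 0.0314). The family has near-identical copies whose reads may not be told apart, so a change in a working histone gene is not shown. EGFL7, the host gene of a microRNA and a secreted vascular factor, fell by 0.81, SCAND1 by 0.93 and the nucleoside diphosphate kinase gene NME3 by 0.88. The potassium channel subunit gene KCNMB3 fell by 0.85, SNHG4, a host of small nucleolar RNA, by 0.84 and SAPCD2 by 0.76. Genes called lower had a higher GC content than genes tested in general, with a median of 55.0% against 48.4%, and those called higher had 53.6%. In the fifth of genes with the highest GC content the median change was -0.07, and 24 of the called lower genes lay there. With a correction for GC content and transcript length, added after seeing the data, 81 genes were called, 36 higher and 45 lower, 69 of them shared with the 92. The part of GC content in single changes was not tested further.

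**Figure D3:**
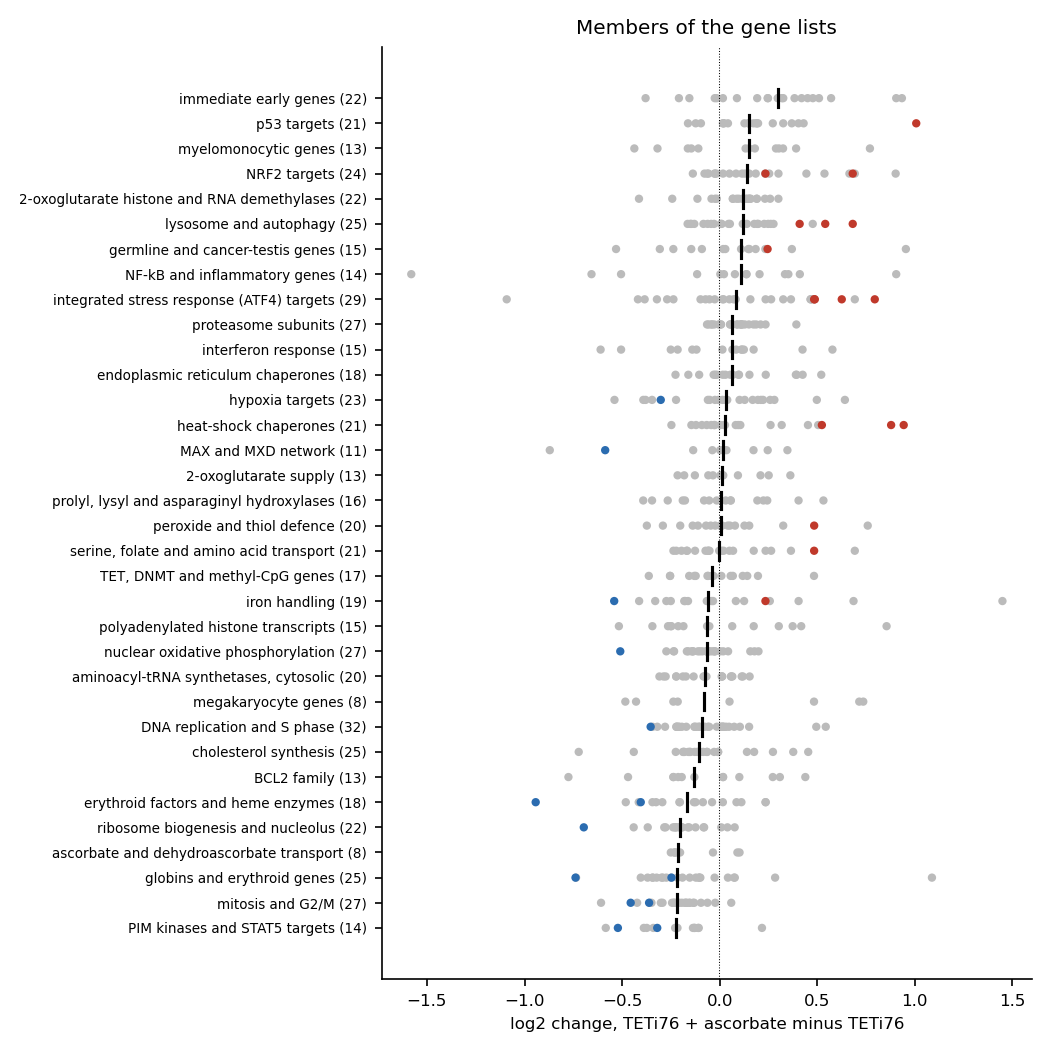
Log2 change on adding ascorbate to TETi76 (horizontal axis) of each tested member of the gene lists with at least 8 tested members (number in brackets). Points are genes, red where called higher, blue where called lower and grey otherwise, and black bars are list medians, from 0.30 for immediate early genes to -0.22 for PIM kinases and STAT5 targets; the dotted line is the median of all genes.

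The enzymes that ascorbate serves as a cofactor showed no called change in their own transcripts. TET1 was at 4.16 and 4.25 FPKM with TETi76 and at 3.79 and 4.19 FPKM with ascorbate added (log2 -0.06, 95% interval -0.36 to 0.23, adjusted p = 0.885). TET2 was at 1.80 and 1.90 FPKM and then at 2.21 and 1.79 FPKM (log2 0.07, 95% interval -0.43 to 0.57, adjusted p = 0.937). TET3 was at 5.83 and 5.48 FPKM and then at 6.45 and 5.997 FPKM (log2 0.12, 95% interval -0.22 to 0.46, adjusted p = 0.782). Limma called 0 of 17 TET, DNMT and methyl-CpG genes, with 3 at an unadjusted p under 0.05, 0 of 22 histone and RNA demethylases, with 1, and 0 of 16 prolyl, lysyl and asparaginyl hydroxylases, with 3. Their medians were -0.04, 0.12 and 0.01. The maintenance methyltransferase DNMT1 was at 52.1 and 51.8 FPKM and then at 44.2 and 42.6 FPKM (log2 -0.25, adjusted p = 0.114). Of 8 genes for transport of ascorbate or its oxidised form 0 were called and 2 had an unadjusted p under 0.05, and the glucose transporter SLC2A1, which also carries dehydroascorbate, was at -0.22 (adjusted p = 0.233).

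The same addition of ascorbate was measured without TETi76. Ascorbate against DMSO, in 4 other libraries, called 60 of 12535 genes (0.479%), 21 higher (0.168%) and 39 lower (0.311%). These calls rest on single libraries as well, with 0 without DMSO replicate 1, 5 without DMSO replicate 2, and 6 and 4 without ascorbate replicates 1 and 2. Across the 12535 genes, which are not independent replicates, the log2 changes of the ascorbate comparisons with and without TETi76 had a Pearson r of 0.024 and a Spearman rho of 0.0016. The SD of these changes across genes was 0.31 with TETi76 and 0.29 without it. For the log2 difference between replicates it was 0.34 to 0.42 in the K01 groups. Spread between libraries of this size lowers r, so a value near 0 cannot show that the responses differ. The calls shared 7 genes, 7 of the 92 and 7 of the 60. HSPA1A and PRAME rose in both. CTH, SLC3A2 and TES rose with TETi76 and fell without it, while TFRC and the gene listed as STRA13 fell with TETi76 and rose without it. A contrast of the change with TETi76 minus the change without it, called the interaction here, passed at 79 genes (0.630%), 35 above 0 (0.279%) and 44 below (0.351%). It rests on single libraries too. The count was 0 without TETi76 replicate 1, 3 without DMSO replicate 1, 12 without DMSO replicate 2, 16 and 14 without ascorbate replicates 1 and 2, 26 without TETi76 replicate 2 and 37 without TETi76 with ascorbate replicate 2.

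Of the 38 gene lists, the integrated stress response held the most positive interactions. It is the programme of the transcription factor ATF4 that raises amino acid synthesis and transport when translation initiation is slowed. Of 29 ATF4 targets tested, 4 rose on adding ascorbate to TETi76 and 0 fell, with a median of 0.08. On adding ascorbate to DMSO 0 rose and 10 fell, with a median of -0.50. The interaction was called in 11, all above 0, with a median of 0.73. TETi76 alone against DMSO shares its libraries with both of these contrasts, and there 1 of the 29 rose and 26 fell, beside 9.61% and 13.7% of all genes tested.

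PSAT1, an enzyme of serine synthesis, was at 155 and 156 FPKM in DMSO, 81.8 and 75.4 with ascorbate, 19.5 and 20.9 with TETi76 and 25.7 and 23.3 with both. With ascorbate alone it fell by 0.98 on the log2 scale (adjusted p = 0.0046), and ascorbate with TETi76 gave 0.26 (adjusted p = 0.213), an interaction of 1.24 (adjusted p = 0.0108). The levels with TETi76, with or without ascorbate, were all well below those without it. TRIB3, a pseudokinase that dampens ATF4, was at 138 and 137 FPKM in DMSO, 73.3 and 76.05 with ascorbate, 37.1 and 42.6 with TETi76 and 48.2 and 40.99 with both (interaction 1.03, adjusted p = 0.0145). SESN2, an inhibitor of growth signalling through mTORC1, was at 70.9 and 66.1, 39.8 and 43.9, 16.9 and 15.4, and 20.6 and 20.3 FPKM in the same order (interaction 1.02, adjusted p = 0.0142). ASNS, asparagine synthetase, was at 59.2 and 56.8 FPKM with TETi76 and at 52.2 and 56.1 FPKM with both (log2 -0.10, adjusted p = 0.585), and with ascorbate alone it fell by 0.83 against DMSO (adjusted p = 0.0046).

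The 4 ATF4 targets that rose reached different levels. CTH, which makes cysteine from cystathionine, was at 27.4 and 25.8 FPKM in DMSO, 11.3 and 13.7 with ascorbate, 3.73 and 4.79 with TETi76 and 8.77 and 7.43 with both, so that ascorbate with TETi76 left it below DMSO (log2 0.79 for the addition to TETi76, SE 0.14, adjusted p = 0.0474). SLC3A2, the heavy chain shared by several amino acid transporters, was at 162 and 183 FPKM in DMSO, 132 and 128 with ascorbate, 207 and 219 with TETi76 and 299 and 297 with both. Its highest level was with both compounds (log2 0.48, SE 0.07, adjusted p = 0.0231, interaction 0.89, adjusted p = 0.0108). PPP1R15A, known as GADD34, which brings the phosphatase to eIF2-alpha and restores translation, was at 54.7 and 61.1, 48.2 and 42.0, 61.4 and 57.0, and 83.1 and 83.6 FPKM in that order (log2 0.49, adjusted p = 0.0495). ATF3, a stress-induced transcription factor, was at 28.6 and 30.1, 23.2 and 23.6, 21.3 and 23.9, and 36.5 and 34.3 FPKM (log2 0.63, SE 0.09, adjusted p = 0.0299).

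**Figure D4:**
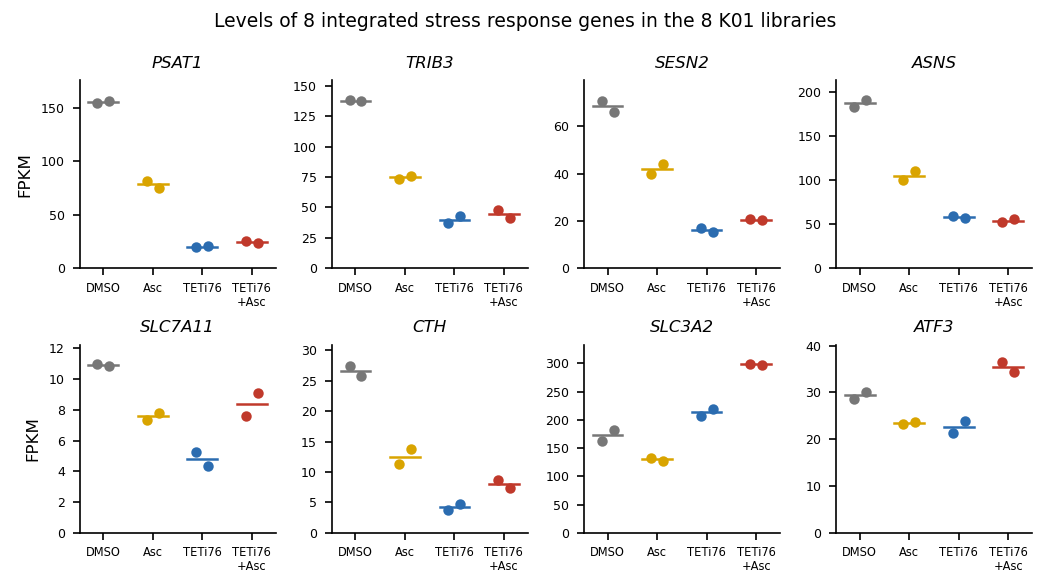
FPKM (vertical axis, from 0) of 8 targets of the integrated stress response in the 8 K01 libraries; points are libraries, lines are means of 2, and Asc is ascorbate. PSAT1, TRIB3, SESN2 and ASNS are lower with ascorbate than with DMSO and lowest with TETi76, with or without ascorbate, while SLC3A2 and ATF3 are highest with both compounds.

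Other targets in the list had mixed values. SLC7A11, the cystine side of the same transporter, was at 5.24 and 4.33 FPKM with TETi76 and at 7.61 and 9.08 FPKM with both (interaction 1.17, adjusted p = 0.0378). The stress factor DDIT3 and the mTORC1 inhibitor DDIT4 were each at 0.47 on adding ascorbate to TETi76, neither called, and ATF4 itself was at -0.03. In the same comparison NUPR1 was at -1.09, PCK2 at -0.42 and CBS at -0.38, none called. Of the 29 targets, 19 had a log2 value above 0 and 10 below. At an unadjusted limma p under 0.05, 12 were higher and 3 lower, beside 773 and 1058 of the 12535 genes tested. The cytosolic aminoacyl-tRNA synthetases, many of them ATF4 targets, had 0 of 20 called on adding ascorbate to TETi76, with a median of -0.07. At the same unadjusted threshold 0 of the synthetases were higher and 6 lower, the opposite direction to most of the 29 targets. On adding ascorbate to DMSO 7 of the 20 fell, and the interaction was called in 4. SARS, the seryl-tRNA synthetase, was at 263 and 257 FPKM in DMSO, 198 and 209 with ascorbate, 142 and 136 with TETi76 and 144 and 146 with both.

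**Figure D5:**
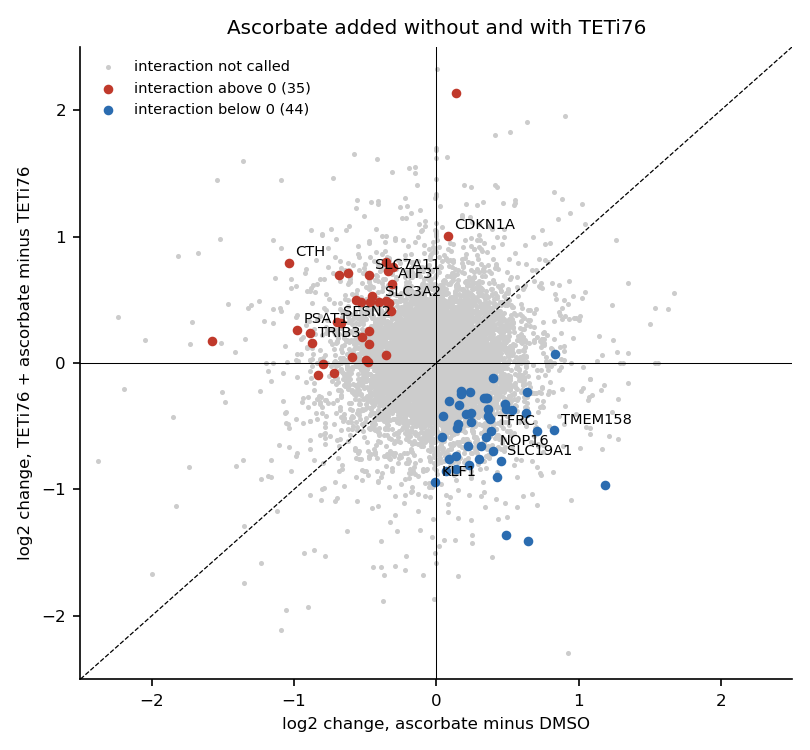
Log2 change on adding ascorbate to TETi76 (vertical axis) against log2 change on adding ascorbate to DMSO (horizontal axis) in K01, each point a gene; axes run from -2.5 to 2.5 and 1 called gene beyond them is not drawn. Red points have a called interaction above 0 (35 genes) and blue points below 0 (44), and the dashed line marks equal change; CTH lies at 0.79 and -1.03 and TFRC at -0.54 and 0.39.

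Among the 44 genes with a negative interaction were transporters, a chaperone and regulators of growth. TFRC had an interaction of -0.93 (adjusted p = 0.0108). SLC19A1 was at 17.8 and 18.2 FPKM in DMSO, 24.0 and 26.1 with ascorbate, 20.3 and 19.3 with TETi76 and 11.7 and 10.6 with both (interaction -1.23, adjusted p = 0.0108). The groups with ascorbate alone and with both compounds lay on opposite sides of the others. TMEM158, a membrane protein induced by RAS, was at 28.2 and 26.4, 49.6 and 49.1, 42.8 and 42.7, and 25.6 and 33.5 FPKM in that order (interaction -1.36, adjusted p = 0.017). HSPA8, the constitutive HSC70, rose on adding ascorbate to DMSO by 0.40 (adjusted p = 0.00658) and was at -0.12 on adding it to TETi76 (adjusted p = 0.222, interaction -0.52, adjusted p = 0.0117). For KLF1 the interaction was -0.94 (adjusted p = 0.0474), and for MYC -0.63 (adjusted p = 0.0173).

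Promoter sequences were read for the called genes to show what lies upstream of those that rose and those that fell. Sequences are from RefSeq on GRCh38.p14, from 250 bases before to 50 after the start, and were found for 31 of 31 genes that rose and 45 of 61 that fell. The core of the antioxidant response element, TGACNNNGC on either strand, was present in 7 of the 31 (22.6%) and in 10 of the 45 (22.2%), beside 15.5% of 9879 tested genes with a promoter and 13.3% of 35116 promoters in the table. The hypoxia response core ACGTG was in 19.4% of those that rose, 28.9% of those that fell and 27.1% of tested genes. The element of C/EBP and ATF factors, TGATGNAAT, was in 0 of the 31 and 0 of the 45, beside 0.466% of tested genes. A match is a description of the letters only. The windows of 2 genes that rose, SLC3A2 and PPP1R15A, and 1 that fell, KLF1, are printed because each holds TGACNNNGC or its reverse complement, marked in capitals. They are the 250 bases before the start, 5′ to 3′ on the strand of the gene, SLC3A2 at chr11:62881449-62881698 (+), PPP1R15A at chr19:48872171-48872420 (+) and KLF1 at chr19:12887202-12887451 (-).
SLC3A2: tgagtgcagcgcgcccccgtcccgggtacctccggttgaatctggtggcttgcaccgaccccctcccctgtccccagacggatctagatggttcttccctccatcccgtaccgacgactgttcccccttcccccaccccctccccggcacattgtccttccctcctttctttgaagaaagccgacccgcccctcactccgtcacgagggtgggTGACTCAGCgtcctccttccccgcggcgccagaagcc
PPP1R15A: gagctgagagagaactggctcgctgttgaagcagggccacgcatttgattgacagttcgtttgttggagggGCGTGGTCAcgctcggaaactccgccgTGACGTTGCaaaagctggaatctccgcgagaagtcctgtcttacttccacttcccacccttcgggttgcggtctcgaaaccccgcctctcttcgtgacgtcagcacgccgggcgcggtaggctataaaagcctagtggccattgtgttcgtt
KLF1: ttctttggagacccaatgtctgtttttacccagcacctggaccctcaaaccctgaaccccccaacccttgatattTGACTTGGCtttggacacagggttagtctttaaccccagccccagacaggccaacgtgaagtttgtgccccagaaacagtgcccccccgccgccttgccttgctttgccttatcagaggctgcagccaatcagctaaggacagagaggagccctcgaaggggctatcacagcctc
The match in SLC3A2 starts 37 bases before the start of the gene and that in KLF1 175 bases before it, while PPP1R15A has a match on each strand. SLC3A2 rose by 0.48, PPP1R15A by 0.49 and KLF1 fell by 0.94 on the log2 scale when ascorbate was added to TETi76.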

How the data were processed

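Polyadenylated RNA of K562 cells was sequenced in 10 libraries of 5 groups, grouped by their labels. The deposited K562 matrix holds FPKM values per gene, as the values show. The submitters' processing notes list limma 3.38.3, edgeR 3.24.3, STAR and hg19 but not their roles, and the counting program is not given in the sources used here. The table has 26171 rows. The 26 rows with a number for a name (at most 0.0657% of a library's FPKM) and 2272 short RNA rows (35.6% to 40.1%) were left out. The design provided for counts or FPKM, and the FPKM form was used.

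Values were tested with limma 3.58.1 (R 4.3.3; trend, robust, two-sided) on log2(FPKM + 1) in 1 fit, for genes of at least 1 FPKM in at least 2 libraries. Benjamini-Hochberg adjustment ran over all genes tested, with a threshold of 0.05. The pseudocount, filter, scaling, libraries in the fit, replicate block and prior were varied (closing section).

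Named genes are up to 12 per direction with the largest called change, a mean of at least 10 FPKM on the higher side and groups that did not overlap, passing over unnamed, antisense and small RNA loci. From each of 38 lists up to 4 called members were named, or the 2 most abundant. TET1, TET2, TET3 and the 5 largest called interactions were added. Other genes with values in the text (among them HEMGN, ATF4 targets such as PSAT1, TRIB3, SESN2, ASNS and SLC7A11, and list members that were not called) were chosen after their values were seen. The members and lists were chosen with earlier results of these data known. A gene that the rule names is not reported here.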

Additional observations from a re-analysis of the deposited data

Results flagged for a closer look

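Among 91 genes that the rule named, 25 differed in their response to ascorbate with and without TETi76, beside 0.630% of all genes tested. The test was limma's test of that difference (adjusted p under 0.05 over 12535 genes). The rule chose many of them by their change on adding ascorbate to TETi76, which is part of this difference, or by the difference itself. The count is therefore raised by the choice and is not separate support. The values are the log2 change on adding ascorbate to TETi76 minus the log2 change on adding it to DMSO.

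The difference was above 0 for 10 of them. CTH, the cystathionine cleaving enzyme, had 1.83, the DNA repair gene XRCC4 1.15, CUEDC2 1.07, YPEL5 1.07 and the stress factor ATF3 0.94. The cell-cycle inhibitor CDKN1A had 0.92, the transporter chain SLC3A2 0.89, the phosphatase subunit PPP1R15A 0.84, the autophagy gene MAP1LC3B 0.73 and the seryl-tRNA synthetase SARS 0.42.

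The difference was below 0 for the others. The histone family locus HIST2H2BC had -2.06, TMEM158 -1.36, the zinc finger gene ZNF593 -1.33, the channel ASIC4 -1.24 and the folate carrier SLC19A1 -1.23. NOP16 had -1.10, SAPCD2 -1.06, EGFL7 -1.04, SNHG4 -0.98 and KLF1 -0.94. TFRC had -0.93, KCNMB3 -0.92, MYC -0.63, the globin HBE1 -0.42 and LDHA -0.39.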

How the results depend on the processing

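The 92 calls on adding ascorbate to TETi76 became 22 (6 higher, 16 lower) with the 8 K01 libraries only and 5 (5 higher, 0 lower; 1392 at an unadjusted p under 0.05) with the 4 libraries only, where fewer libraries share the estimate of the spread. Without a filter on low values 34 were lower. Leaving out 1 of the 4 libraries gave 2 to 72 calls, 0 to 13 higher and 1 to 59 lower; the lone library of a group is then assumed to vary like the other groups. For ascorbate against DMSO, 60 calls became 27 (10 higher, 17 lower) with the 8 K01 libraries only, 34 were higher at a filter of 5 FPKM, and leaving out 1 library gave 0 to 6 (0 to 3 higher, 0 to 5 lower). The 79 interactions became 42 (23 above 0, 19 below) without a filter, 137 (57 and 80) at a filter of 5 FPKM and 29 (14 and 15) with the 8 K01 libraries only, 29 were below 0 under quantile normalization, and leaving out 1 library gave 0 to 71 (0 to 22 and 0 to 49).

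With the replicate number as a block, 65 genes were called on adding ascorbate to TETi76 (21 higher, 44 lower), and the interactions were 46 (21 above 0, 25 below). The difference between replicates 1 and 2 had a Pearson r of 0.0071 across genes between TETi76 and TETi76 with ascorbate. Over the other pairs of groups r was -0.023 to 0.051. These values show no strong shift shared by replicate number. They cannot show whether the numbers mark shared cultures or days. Other counts stayed within 1.5 times under pseudocounts of 0.1 and 0.5, median-ratio scaling, a prior that is not robust and the GC and length correction, which was chosen after seeing the data. DESeq2 was not run because the values are not counts. An estimated depth of 4.62 to 8.81 M reads (M, mega), with 2 libraries a group, limits what is called in low genes.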

Other observations

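The genes described next were chosen after their values were seen. They were not part of a list, so they carry no count of members tested. On adding ascorbate to TETi76 the following fell (limma, Benjamini-Hochberg), while the fatty acid desaturase FADS1 was at -0.23 and was not called (adjusted p = 0.114). FASN, the fatty acid synthase, was at 58.3 and 55.0 FPKM with TETi76 and at 43.4 and 42.5 FPKM with both (log2 -0.39, adjusted p = 0.0425). SCD, the stearoyl-CoA desaturase, was at 102 and 99.8 FPKM and then at 77.6 and 82.2 FPKM (log2 -0.33, adjusted p = 0.0332). SREBF1, the factor that activates both, was at 15.1 and 15.0 FPKM and then at 10.5 and 10.2 FPKM (log2 -0.50, adjusted p = 0.049). SLC25A1, which exports citrate from mitochondria, fell by 0.44 (adjusted p = 0.0481). KDM1A, a histone demethylase that uses flavin and not ascorbate, fell by 0.37 (adjusted p = 0.0474), from 59.8 and 60.2 to 45.0 and 47.5 FPKM. KCNH2, a potassium channel gene, fell from 114 and 106 to 76.9 and 76.6 FPKM (log2 -0.51, adjusted p = 0.0107), and MAT2A, which makes S-adenosylmethionine, fell by 0.42 (adjusted p = 0.0231).

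Some of the largest changes were in low genes. PKIG, an inhibitor of protein kinase A, was at 0.810 and 0.652 FPKM with TETi76 and at 6.67 and 6.52 FPKM with both (log2 2.13, adjusted p = 0.0107), and the small heat-shock gene HSPB8 was at 1.54 and 1.13 FPKM and then at 6.92 and 4.52 FPKM (log2 1.51, adjusted p = 0.0425). LIM2, SPANXC and LINC01564 were listed at 0 in both TETi76 libraries and at 1.63 to 2.71 FPKM with both compounds. BRD2, a reader of acetylated histones, was at 125 and 126 FPKM and then at 172 in both libraries (log2 0.45, adjusted p = 0.0314). The cytoskeletal genes ACTG1 and TPM4 rose by 0.28 (adjusted p = 0.0314) and 0.40 (adjusted p = 0.0431).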
